A study of Mus musculus with 183 samples.

Results

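The genes described here set the phosphorylation of the translation initiation factor eIF2 in mouse embryonic stem (ES) cells. They were taken by symbol from a table of read counts, in which 7 of 7 were found among 53380 genes: the kinases Eif2ak1, Eif2ak2, Eif2ak3 and Eif2ak4, the phosphatase subunits Ppp1r15a and Ppp1r15b, and their common substrate Eif2s1. The counts come from 47 of the 183 samples of the series, the libraries of a half-life experiment. They were made from a pair of ES cell clones kept in serum and LIF. The pooled binding and RPKM values given further below come from other ES cell lines, with FLAG-Avi-tagged Mtr4, Skiv2l, Xrn1 or Aven. Clone 5F is labelled Rosa26Cre-ERT2/- Skiv2lfl/fl. Clone 7E is labelled Aven-/- with Skiv2l3xFLAG-Avi/3xFLAG-Avi and Rosa26Cre-ERT2/BirA-V6, and other labels of the same clone add floxed Skiv2l. RNA-seq of a further clone of each kind is in the series but was not used here. In the libraries used, each genotype is 1 clone, so clone and genotype cannot be told apart. Both carry Cre-ERT2, a recombinase that 4-hydroxytamoxifen (4OHT) activates, and both were sampled at day 0, without 4OHT, and at day 4 of 0.1 µM 4OHT. SKIV2L is the helicase that feeds RNA into the cytoplasmic exosome, and AVEN is a protein studied beside it. No line without a floxed allele was treated, so the effects of 4OHT, of Cre and of time in culture cannot be told apart from that of the deletion. At both days cells received actinomycin D, which blocks transcription, for 120, 240 or 360 min, or DMSO for 360 min as mock (0 min). Each combination of clone, day and time had 3 libraries, except 120 min at day 0 of clone 5F, which had 2. The study calls these replicates technical, so the p-values below measure only the spread between these libraries.

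When eIF2 is phosphorylated on its alpha subunit it holds back its exchange factor eIF2B, general translation initiation falls, and a few mRNAs with upstream reading frames, such as that of Atf4, are translated more. Each kinase answers a different stress: HRI (Eif2ak1) to heme shortage and mitochondrial stress, PKR (Eif2ak2) to double-stranded RNA, PERK (Eif2ak3) to unfolded proteins in the endoplasmic reticulum, and GCN2 (Eif2ak4) to uncharged tRNA and stalled ribosomes. The phosphatase is protein phosphatase 1 (PP1) guided to eIF2 by GADD34 (Ppp1r15a), whose gene is itself induced by the response, or by CReP (Ppp1r15b), which is made constitutively. Together these steps are known as the integrated stress response (ISR).

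Short stretches of the genes show the parts on which this cycle turns and the features that differ most among the mRNAs. All are written 5′ to 3′ on the strand of the gene, with coordinates in GRCm38. The first is the serine codon of eIF2 alpha that all 4 kinases phosphorylate, in capitals, in exon 2 of 8 of Eif2s1 at chr12:78866667-78866695 on the plus strand, codon 52 when the start codon is counted. The next pair holds, in capitals, the codons of the motif by which each phosphatase subunit binds PP1. In Ppp1r15a it lies at the junction of exons 2 and 3 of 3, between chr7:45523305-45523750 on the minus strand, and in Ppp1r15b across exons 1 and 2 of 2, between chr1:133133604-133136680 on the plus strand. The last is 30 bases of the 3′ UTR of Ppp1r15a, in exon 3 of 3 at chr7:45522954-45522983 on the minus strand, in which capitals mark 4 overlapping copies of TATTTAT, the core of an AU-rich element.
Eif2s1, phosphorylated serine codon: tcttagtgaattaTCCagacgacgtatcc
Ppp1r15a, PP1-binding codons: aaagctcggAAGGTACACTTCgctgagaaa
Ppp1r15b, PP1-binding codons: aagagaaaaAAGGTAACCTTCctggaagaa
Ppp1r15a, 3′ UTR stretch: gtttcctatTATTTATTTATTTATTTATtt

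The transcript features come from Gencode M21 (GRCm38), with 1 principal transcript per gene and 17181 coding transcripts in all. The 3′ UTR of Ppp1r15a was 76 bases long, against a median of 729 bases, and held 4 copies of ATTTA and 4 of TATTTAT, counted on the sense strand with overlaps allowed. At 52.6 copies of ATTTA per kb it exceeded nearly all transcripts, and only 1.46% of all transcripts held 4 or more copies of TATTTAT. Eif2s1 had 13 copies of ATTTA in 2094 bases, and the other members had 1 to 3 in 3′ UTRs of 174 to 2896 bases. Of TATTTAT, Eif2ak2 had 2 copies, Eif2ak3 and Eif2s1 had 1 each, and Eif2ak1, Eif2ak4 and Ppp1r15b had 0. At least 1 ATTTA was found in 58.8% of all 3′ UTRs and at least 1 TATTTAT in 24.2%. An ATG upstream of the start codon, counted in any frame, was present in the 5′ UTR of 50.0% of transcripts. Ppp1r15a, Ppp1r15b and Eif2ak3 each had 3, Eif2s1 had 2, Eif2ak2 had 1, and Eif2ak1 and Eif2ak4 had 0. In RefSeq promoters of GRCm38.p6 (250 bases before to 50 after the gene start) the cyclic AMP response element TGACGTCA, searched on both strands, was found in 1.79% of 32851 promoters. Of the 6 members with an entry only Ppp1r15a held it, ending 4 bases before the start at chr7:45526262-45526291 on the minus strand, shown here because this gene changed in both clones, with the match in capitals. TGATGNAA, a pattern bound by ATF4 with C/EBP proteins, was found in 3.97% of promoters and in 0 of the 6 members.
Ppp1r15a, promoter stretch: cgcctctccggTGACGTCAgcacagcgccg

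The genes lie on 7 chromosomes of GRCm38: Eif2ak1 (ENSMUSG00000029613.15) at chr5:143817788-143904251, Eif2ak2 (ENSMUSG00000024079.4) at chr17:78852564-78882573, Eif2ak3 (ENSMUSG00000031668.14) at chr6:70844515-70905245, and Eif2ak4 (ENSMUSG00000005102.13) at chr2:118388618-118475234. The phosphatase subunits Ppp1r15a (ENSMUSG00000040435.12) and Ppp1r15b (ENSMUSG00000046062.5) lie at chr7:45522916-45526268 and chr1:133131143-133139783, and Eif2s1 (ENSMUSG00000021116.10) at chr12:78861819-78887010. The libraries do not keep the strand, so reads of overlapping antisense exons cannot be told apart. Eif2ak1 shared up to 487 bases with Aimp2, whose mean normalized count was 1504.8, a level like its own. The overlap of Ppp1r15b was 640 bases with Gm26616, a transcript with a mean of 12.95, and that of Ppp1r15a was 12 bases with Tulp2.

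Total gene counts were 24440935 to 34114250 per library. Normalized counts, the unit used below, are read counts divided by a size factor within each time point and scaled by 1 ERCC spike-in factor per time point, so mock levels are relative to the other mRNAs of the same library. Aven was at 35.1 to 36.1 CPM (counts relative to the library total) in the mock libraries of clone 5F at day 0 and at 2.0 to 3.0 in clone 7E, as labelled. Skiv2l fell in clone 7E from 31.2 to 36.1 CPM at day 0 to 12.4 to 13.8 at day 4, but was 147 to 148 and 132 to 153 CPM in the libraries labelled day 0 and day 4 of clone 5F. That change in clone 5F did not pass the test, so the deletion there was not seen in this gene count. The count includes exons outside the deletion in both clones, and their part was not tested. In the mock libraries the summed level of 7 ES cell markers was 2809 to 2855 CPM at day 0 and 2626 to 2713 CPM at day 4 in clone 5F, and 2815 to 2914 and then 2371 to 2442 CPM in clone 7E. There 6 of the 7 fell past the test, beside 19.4% of all genes. The summed level of 8 markers of differentiated cells was 66.3 to 76.5 CPM in clone 5F and 18.5 to 27.0 CPM in clone 7E. Before 4OHT 5 of the 8 were lower in clone 7E and 1 was higher, beside 36.2% of all genes called in either direction. Gata4 was at 29.6 to 36.9 against 2.62 to 3.79 CPM. Sox1 went the other way at day 0, at 2.72 to 3.75 CPM in clone 5F and 13.45 to 15.88 CPM in clone 7E. At day 4 Sox1 was at 2.93 to 3.94 and 2.72 to 3.79 CPM. The summed level of 5 fibroblast markers was 6.503 to 7.36 and then 8.41 to 10.0 CPM in clone 5F, and 2.96 to 3.54 and then 5.68 to 7.22 CPM in clone 7E. There 3 of the 4 tested rose, beside 20.7% of all genes. The part of these shifts in the results below was not tested. In the 6 libraries whose number in the labels is a multiple of 8, none of them mock, mt-Rnr2 was at 2139 to 3562 CPM against 5263 to 30715 CPM in the others. These 6 were also the outermost on the first principal component of the within-group deviations, which held 60.7% of their variance. Leaving these 6 out, a step chosen after seeing the data, changed no call on a member. The ratio of mRNA to spike-in counts in the mock libraries was 312 to 322 in clone 7E at day 0 and 151 to 156 at day 4, against 324 to 363 in clone 5F. Fewer cells and less RNA per cell cannot be told apart in such bulk samples. When each library was instead scaled by its own ERCC counts (own spike-ins), the median of all genes therefore moved by -1.11 log2 between the days in clone 7E and by -0.07 in clone 5F.

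The first question is how abundant each step of the cycle was. Per kb of transcript, the substrate Eif2s1 stood highest in the mock libraries of clone 5F at day 0, at 2718 ± 140 normalized counts per kb (SD, n = 3), followed by Ppp1r15b at 1484 ± 47.0. The kinases and Ppp1r15a were several-fold lower, with Eif2ak1 at 431 ± 15.1, Ppp1r15a at 382 ± 10.5, Eif2ak2 at 298 ± 23.7, Eif2ak4 at 280 ± 2.76 and Eif2ak3 at 269 ± 2.52. The ranges of Eif2ak2 and Eif2ak4 overlapped, and those of all other neighbors in this order did not. Clone 7E at day 0 had the same order. In the libraries labelled day 4 Ppp1r15a had moved above Eif2ak1 in both clones, at 508 ± 5.97 against 394 ± 16.5 per kb in clone 5F and at 515 ± 9.78 against 380 ± 16.5 in clone 7E, with ranges that did not overlap. Below Eif2ak1, the neighbors Eif2ak2, Eif2ak4 and Eif2ak3 overlapped in clone 7E at day 4. In clone 5F at day 4, Eif2ak4 stood apart above Eif2ak2 and Eif2ak3, which overlapped.

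**Figure D1:**
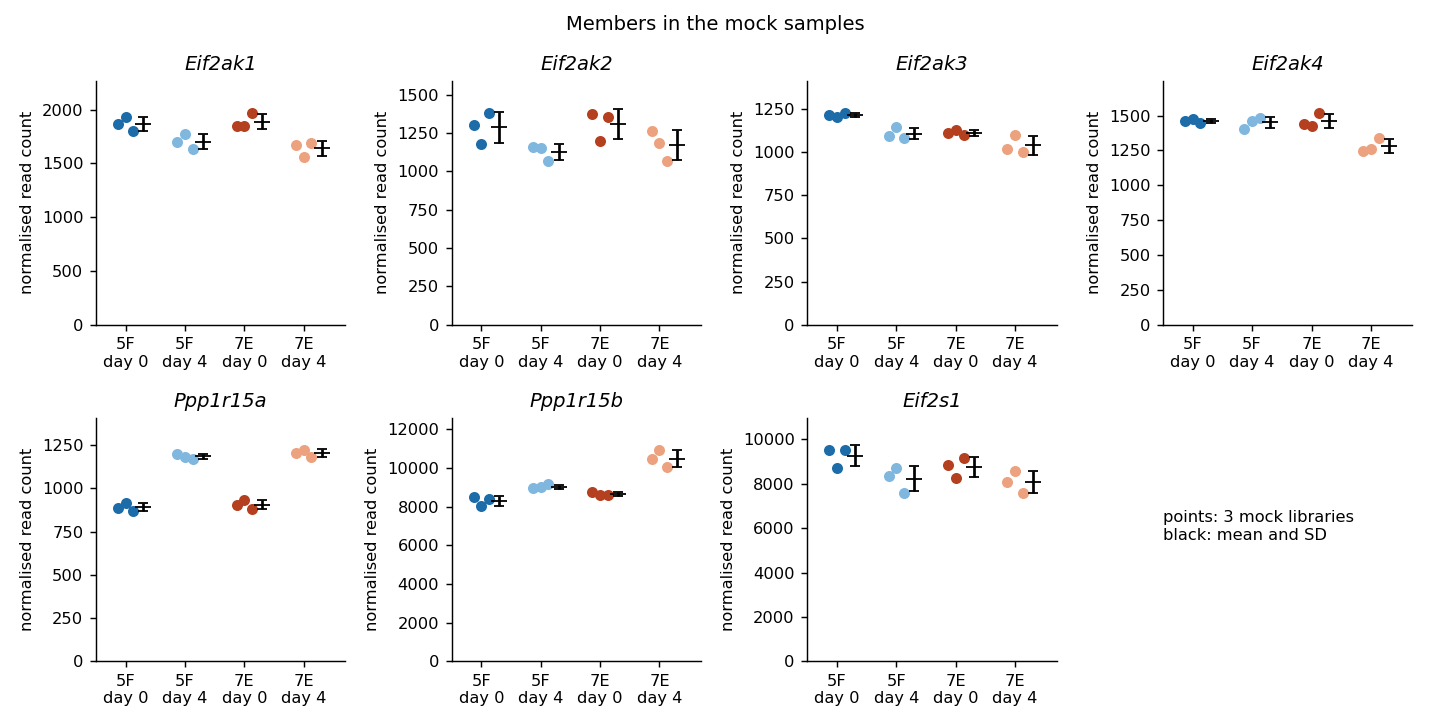
Normalized read count of the 7 genes in the mock libraries (y axis, one panel per gene) for each clone and 4OHT day (x axis), with points for the 3 libraries and black marks for mean and SD. The 6 libraries of Ppp1r15a labelled day 4 sit between 1171 and 1225, all above the 6 of day 0, which sit between 869 and 933.

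Day 4 of 4OHT was then compared with day 0 in the mock libraries of each clone. Ppp1r15a rose in both clones and changed most among the members. Ppp1r15b rose in clone 7E, and its smaller rise in clone 5F depended on the processing, as did small falls of some kinases and of the substrate. In clone 5F 4 of 7 members passed at 0.05 in the quasi-likelihood test of edgeR, adjusted after Benjamini and Hochberg, against 24.5% of the 16354 genes tested. In clone 7E it was also 4 of 7, against 40.1% of 16333 genes. In each clone 2 rose and 2 fell, and the backgrounds by direction were 12.8% higher and 11.6% lower in clone 5F and 20.7% higher and 19.4% lower in clone 7E. With own spike-ins, genes called in clone 7E were 244 higher and 15046 lower and those in clone 5F 1063 higher and 2347 lower. All 7 members were then lower in clone 7E, by -0.69 to -1.30 log2 (edgeR adjusted p at or below 5.13e-10), where the median of all genes was -1.11. In clone 5F only Ppp1r15a was called without replicate 1, without replicate 3 or with the replicate block, so the count of 4 there rests on single libraries.

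Ppp1r15a, the inducible phosphatase subunit, had normalized counts of 889, 918 and 869 at day 0 of clone 5F and of 1199, 1184 and 1171 in the libraries labelled day 4. In clone 7E it went from 901, 933 and 880 to 1203, 1225 and 1179. All libraries of day 4 were above all of day 0, at nearly the same level in both clones. The rise was 0.41 ± 0.06 log2 (SE), or 1.33-fold, in clone 5F (edgeR adjusted p = 1.91e-05) and 0.41 ± 0.06 in clone 7E (edgeR adjusted p = 6.09e-06). Relative to the median of all genes under own spike-in scaling it was 0.41 and 0.42 log2. On that scale, and without that median, the value in clone 7E was -0.69 log2, like most genes of that clone, so the rise there is one relative to the other mRNAs.

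Ppp1r15b, the constitutive subunit, was at 8520, 8010 and 8377 at day 0 of clone 5F and at 8937, 9014 and 9144 in those labelled day 4. In clone 7E it went from 8746, 8594 and 8602 to 10467, 10950 and 10032. The groups did not overlap in either clone, and the step was wider in clone 7E. The change was 0.12 ± 0.04 log2 in clone 5F (edgeR adjusted p = 0.0427) and 0.28 ± 0.05, or 1.21-fold, in clone 7E (edgeR adjusted p = 3.02e-05). The call in clone 5F was lost whichever replicate number was left out, with edgeR adjusted p of 0.132, 0.0973 and 0.223, while the one in clone 7E was kept. With own spike-ins the value of clone 5F was 0.06 log2 and was not called (edgeR adjusted p = 0.601), and that of clone 7E turned to -0.82 log2. Relative to the median of all genes on that scale they were 0.13 and 0.29 log2.

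Among the kinases, Eif2ak1 (HRI) had 1867, 1928 and 1798 counts at day 0 and 1697, 1776 and 1633 at the libraries labelled day 4 of clone 5F, and 1844, 1849 and 1971 against 1671, 1560 and 1694 in clone 7E. The libraries of day 4 were below all of day 0 in both clones. The difference was -0.20 ± 0.06 log2 in clone 7E, which passed the test (edgeR adjusted p = 0.00562), and -0.13 ± 0.05 in clone 5F, which did not (edgeR adjusted p = 0.0696). Eif2ak4 (GCN2) was at 1437, 1427 and 1520 at day 0 of clone 7E and at 1246, 1262 and 1342 at day 4. Its groups were apart in that clone, with a fall by 0.19 ± 0.06 log2 (edgeR adjusted p = 0.0121) that lost its call without replicate 1 (edgeR adjusted p = 0.124). In clone 5F, Eif2ak4 had 1465, 1475 and 1446 counts against 1407, 1464 and 1485, with a difference of -0.01 log2 (95% interval -0.11 to 0.09).

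Eif2ak2 (PKR) had 1300, 1178 and 1382 counts at day 0 of clone 5F and 1156, 1152 and 1066 in those labelled day 4, which were lower without overlap. The fall by 0.19 ± 0.06 log2 (edgeR adjusted p = 0.0297) lost its call without replicate 1 (edgeR adjusted p = 0.134) or replicate 3 (0.443). In clone 7E the groups overlapped, at 1373, 1196 and 1353 against 1263, 1185 and 1070, a difference of -0.16 log2 (edgeR adjusted p = 0.0695) that passed only without replicate 2 (0.0254). Eif2ak3 (PERK) had 1213, 1204 and 1227 counts against 1093, 1144 and 1083 in clone 5F and 1110, 1130 and 1096 against 1014, 1100 and 1001 in clone 7E. The groups were apart in clone 5F and overlapped in clone 7E. These differences of -0.13 and -0.10 log2 did not pass (edgeR adjusted p = 0.0791 and 0.205), though that of clone 5F did without replicate 2 (0.0498).

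Eif2s1, the substrate, had 9534, 8705 and 9528 counts at day 0 and 8347, 8696 and 7598 in those labelled day 4 of clone 5F. Every library of day 4 was lower, but the nearest were 8705 and 8696. The fall by 0.17 ± 0.05 log2 (edgeR adjusted p = 0.0183) lost its call without replicate 1 (0.161) or replicate 3 (0.352). In clone 7E its counts of 8858, 8258 and 9153 and of 8060, 8574 and 7585 overlapped, with a difference of -0.12 log2 (edgeR adjusted p = 0.0713) that passed only without replicate 2 (0.00322).

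The clones were also compared with each other. Before 4OHT they differed in Skiv2l as well as in Aven: Skiv2l was at 31.2 to 36.1 CPM in clone 7E against 147 to 148 CPM in clone 5F. Before 4OHT, 0 of 7 members differed between clones 7E and 5F by edgeR's quasi-likelihood test, against 36.2% of 17187 genes. The nearest was Eif2ak3 at -0.13 log2 (95% interval -0.23 to -0.02, edgeR adjusted p = 0.0618), and at an unadjusted p under 0.05 it was the 1 member that passed. With own spike-ins 2 members were lower in clone 7E, Eif2ak3 at -0.29 log2 (edgeR adjusted p = 0.000797) and Eif2s1 at -0.24 (0.00136), where the median of all genes was -0.17. The change over 4OHT was compared by an interaction term, which 0 of 7 members and 11.9% of genes passed. For Ppp1r15a the difference of the changes was 0.00 log2 (95% interval -0.14 to 0.14). For Ppp1r15b it was 0.16 (95% interval 0.04 to 0.27, edgeR adjusted p = 0.0831), higher in clone 7E, and for Eif2ak4 it was -0.18 (95% interval -0.32 to -0.04, edgeR adjusted p = 0.119). The last 2 were past an unadjusted p of 0.05 only.

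**Figure D2:**
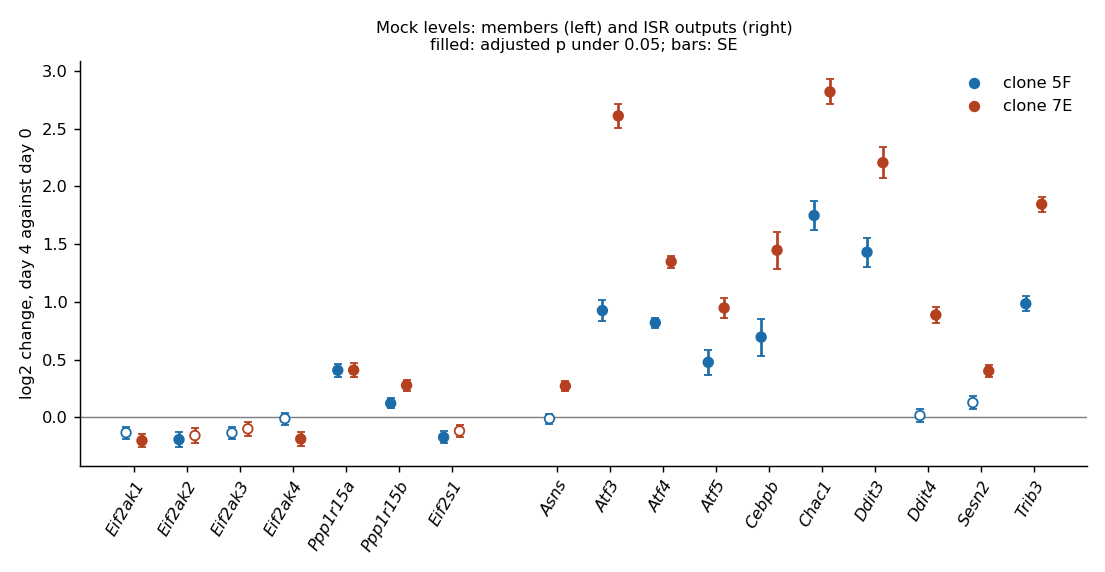
Log2 change of the mock level from day 0 to day 4 of 4OHT (y axis) for the 7 members at the left and 10 ISR outputs at the right (x axis), in clone 5F and clone 7E. Filled points passed edgeR's test at an adjusted p under 0.05 and bars are SE: Ppp1r15a lies at 0.41 in both clones, and the ISR outputs reach 1.75 in clone 5F and 2.82 in clone 7E, both for Chac1.

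The genes that act before and after these enzymes were described from lists. Of 10 ISR outputs, 7 were higher at day 4 in clone 5F and 10 in clone 7E, beside 12.8% and 20.7% of all genes, with list medians of 0.76 and 1.40 log2 against about 0 over all genes (-0.00 and -0.01). Atf4, the transcription factor at the head of the response, had 3650, 3578 and 3597 normalized counts at day 0 of clone 5F and 6324, 6492 and 6285 in those labelled day 4. In clone 7E it had 4797, 4665 and 4875, then 12855, 12448 and 11195. Its groups were far apart in both clones, with rises of 0.82 and 1.35 log2 (edgeR adjusted p = 1.47e-11 and 8.17e-16). Among its targets, Ddit3, which encodes CHOP, rose by 1.43 and 2.20 log2, Chac1, which degrades glutathione, by 1.75 and 2.82, and Trib3, which encodes a pseudokinase, by 0.98 and 1.84 (all with edgeR adjusted p at or below 4.72e-08). These rises were larger than that of Ppp1r15a, itself a target of the response. The interaction term passed and was higher in clone 7E for 10 of 10 outputs, beside 11.9% of genes passing in either direction. For Ppp1r15a it was 0.00 log2 as above. With own spike-ins the median of all genes for this term was -1.03 log2, so these differences are relative to the other mRNAs. Asns, Ddit4 and Sesn2 had values of -0.01, 0.02 and 0.13 in clone 5F and did not pass there. Before 4OHT, 6 of the 10 were higher and 1 lower in clone 7E than in 5F, beside 36.2% of all genes called in either direction.

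Of 8 regulators of the kinases, 2 rose and 3 fell in clone 5F, and 3 rose and 2 fell in clone 7E, beside 24.5% and 40.1% of all genes called in either direction. Gcn1 (listed as Gcn1l1), which activates GCN2 on ribosomes, rose by 0.41 and 0.29 log2, and Dele1, which carries mitochondrial stress to HRI, by 0.26 and 0.30. Hspa5, the chaperone that restrains PERK, fell by 0.47 and 0.41 log2, and Map3k20, which senses colliding ribosomes, by 0.25 and 0.17. Dnajc3, a co-chaperone that inhibits the kinases, fell by 0.20 in clone 5F and had a value of -0.04 in clone 7E, which did not pass. Impact, which competes for Gcn1, rose by 0.22 in clone 7E and had a value of 0.06 in clone 5F, which did not pass. Neither change differed between the clones by the interaction term (edgeR adjusted p = 0.115 and 0.106). Of 9 genes of eIF2, eIF2B and eIF5, 0 passed in clone 5F and 3 rose in clone 7E: Eif5, the partner that makes eIF2 hydrolyze GTP, by 0.17 log2, Eif2s2, the beta subunit, by 0.16, and Eif2s3y, the gamma subunit gene of the Y chromosome, by 1.17 from a very low level. Before 4OHT 5 of them were lower in clone 7E, namely Eif2b1, Eif2b3, Eif2b4 and Eif2b5 of the exchange factor at -0.35, -0.37, -0.13 and -0.27 log2, and Eif2s3y at -8.62 log2, beside 36.2% of all genes called in either direction. Its raw counts were 3096, 3440 and 3153 in clone 5F at day 0 and 10, 6 and 7 in clone 7E. The counts hold uniquely mapped reads, and its X-linked copy Eif2s3x differed by -0.16 log2, which did not pass (edgeR adjusted p = 0.0624). Of 4 partners of the phosphatase, the PP1 catalytic subunits and Nck1, 0 passed in any of these comparisons. At an unadjusted edgeR quasi-likelihood p under 0.05 there were 2, Nck1 at -0.16 log2 and Ppp1cb at 0.11 log2, both between the clones before 4OHT.

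The time course then showed how fast each mRNA was lost once transcription was blocked. Ppp1r15a, Eif2ak3 and Ppp1r15b were lost early, Eif2ak2 was lost slowly at first and then below the level of the median gene, and Eif2ak1, Eif2s1 and Eif2ak4 were lost slowly. All 7 were lower at 120 min than in the mock libraries by edgeR's test in each clone and day, but so were 72%, 76.3%, 75% and 77.6% of all genes, in clone 5F at day 0 and 4 and in clone 7E at day 0 and 4. The size therefore says more than the count: the members' median fall lay between -0.51 and -0.66 log2, against -0.83 to -0.85 over all genes. For Eif2s1 in clone 5F the call was lost at day 0 without replicate 1 or 3 (edgeR adjusted p = 0.0534 and 0.13) and at day 4 without replicate 2 or 3 (0.0847 and 0.0526). With own spike-ins the calls of Eif2ak1 were lost in 2 of the 4 groups and those of Eif2ak4 in 3.

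Ppp1r15a was nearly gone within 120 min. In clone 5F at day 0 its counts went from 869 to 918 in the mock libraries to 81.0 and 85.9 at 120 min, then to 39.0, 38.5 and 46.6 at 240 min and to 29.8, 36.4 and 27.7 at 360 min. In those labelled day 4 they went from 1171 to 1199 to 118, 127 and 149, then to 66.3, 57.2 and 82.0 and to 47.6, 60.7 and 43.8. The levels of day 4 stayed above those of day 0 at each time. The share left at 120 min was 9.36% ± 0.38 (SD, n = 2) at day 0 and 11.1% ± 1.3 (n = 3) at day 4 in clone 5F, and 9.93% ± 0.63 and 12.2% ± 0.99 (n = 3 each) in clone 7E. In both clones every library of day 4 kept a larger share at 120 min than every library of day 0, and in clone 7E also at 240 min, but the differences of these falls did not pass the test given below. The median gene of the 9874 with a mean normalized count of at least 100 kept 59.1% to 61.1%. The early fall of Ppp1r15a was between -3.03 ± 0.11 and -3.42 ± 0.14 log2 in the 4 clone and day groups, and 3.1% to 3.8% of genes tested fell by more. Between 240 and 360 min the share left moved only from 4.64% to 3.51% in clone 5F at day 0, a slower loss than before 120 min. The single-exponential half-life below is therefore too long for the early part, where the loss was faster.

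Ppp1r15b fell to 2593 and 2607 counts at 120 min, to 1239, 1314 and 1397 at 240 min and to 692, 721 and 664 at 360 min in clone 5F at day 0. In clone 7E at day 0 it was at 2771, 2756 and 2940, at 1608, 1605 and 1598, and at 1057, 1132 and 997. From 120 min on, all libraries of clone 7E were above all of clone 5F at day 0. The share left at 360 min was 8.34% ± 0.34 in clone 5F and 12.3% ± 0.78 in clone 7E (SD, n = 3 each). In those of day 4 it was 7.42% ± 0.12 and 9.54% ± 0.76. Eif2ak3 kept 31.5% ± 2.4 of its mock level at 120 min (n = 2) and 15.5% ± 0.59 at 360 min (n = 3) in clone 5F at day 0, close to Ppp1r15b at first and then slower. Eif2ak2 kept 73.3% at 120 min but 30.4% at 360 min in that group. Eif2ak1, Eif2s1 and Eif2ak4 still had 52.0%, 56.5% and 62.2% at 360 min, where the median gene had 41.6%.

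**Figure D3:**
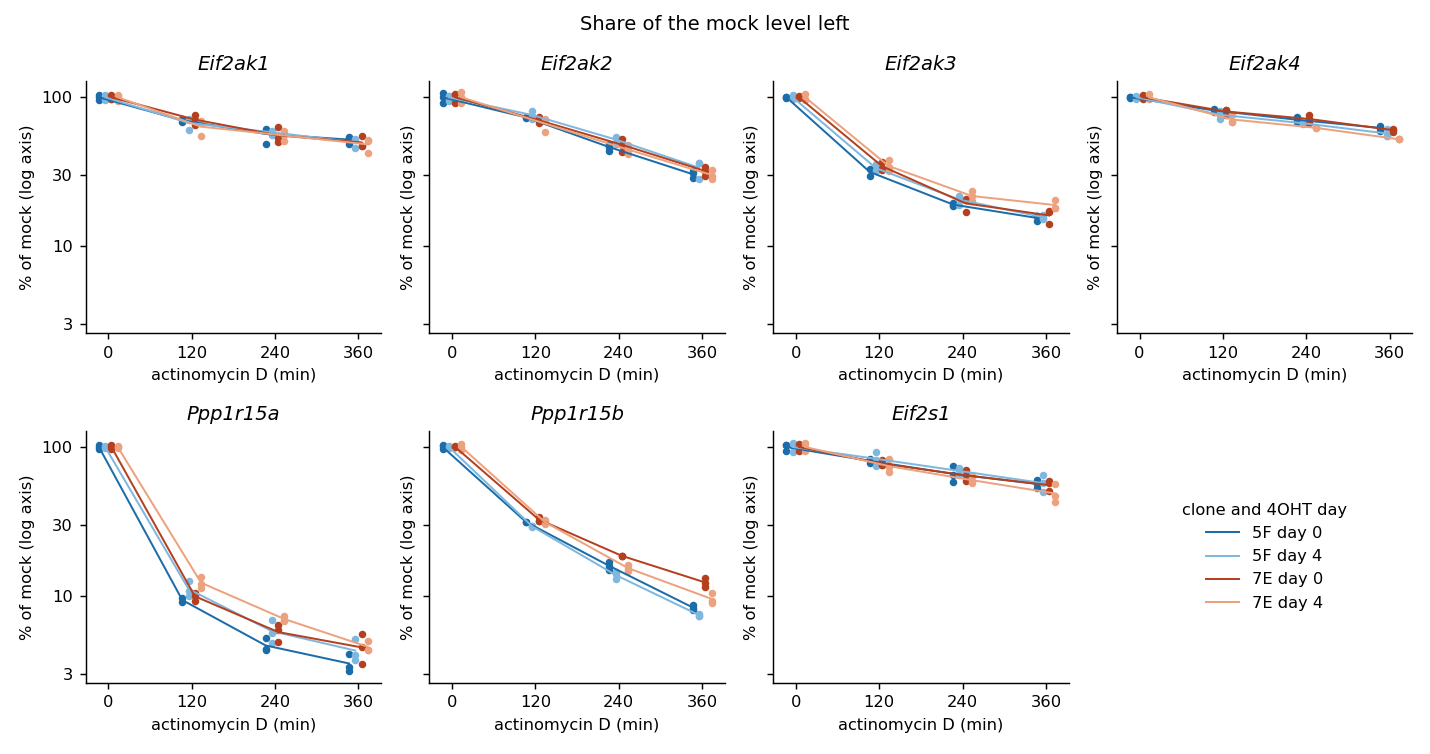
Share of the mock level left (percent, log axis) against time in actinomycin D (min), one panel per gene, with points for libraries and lines through the group means of the 4 clone and day groups. Ppp1r15a drops to between 9.36% and 12.2% at 120 min, and Eif2ak4 still holds 52.2% to 62.2% at 360 min.

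Half-lives were fitted as the slope of the natural log of the normalized count + 1 on time. That of Ppp1r15a was 76.1 ± 10.5 min (SE of the fit, 11 libraries) in clone 5F at day 0, 82.6 ± 11.7 min at day 4, and 84.6 ± 13.4 and 85.0 ± 11.1 min in clone 7E (12 libraries each). Only 1.13% to 1.76% of genes fell faster. Ppp1r15b had 101 ± 4.82 and 97.3 ± 5.13 min in clone 5F and 121 ± 9.24 and 107 ± 6.95 min in clone 7E, with 3.87% to 7.58% of genes faster. The kinase of the endoplasmic reticulum, Eif2ak3, followed with 134 ± 14.7 to 152 ± 18.9 min over the 4 groups. Eif2ak2 lay at 208 ± 8.75 to 227 ± 14.2 min, below the median gene, which had 286 to 290 min. Above that median lay Eif2ak1 at 354 ± 40.2 to 377 ± 45.1 min, Eif2s1 at 348 ± 33.8 to 444 ± 52.6 min and Eif2ak4 at 401 ± 32.9 to 528 ± 29.8 min. Both phosphatase subunits were thus shorter-lived than their substrate in each group, with values more than 1 SE apart. Within 1 SE, Ppp1r15a overlapped with Ppp1r15b in clone 5F at day 4, Ppp1r15b with Eif2ak3 in clone 7E at day 0, and Eif2ak1 with Eif2s1 in all 4 groups. Eif2ak4 overlapped with Eif2s1 at day 4 in both clones and with Eif2ak1 at day 4 in clone 7E. These genes are not ranked there, and Eif2ak4 stood apart as the longest-lived member only at day 0.

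**Figure D4:**
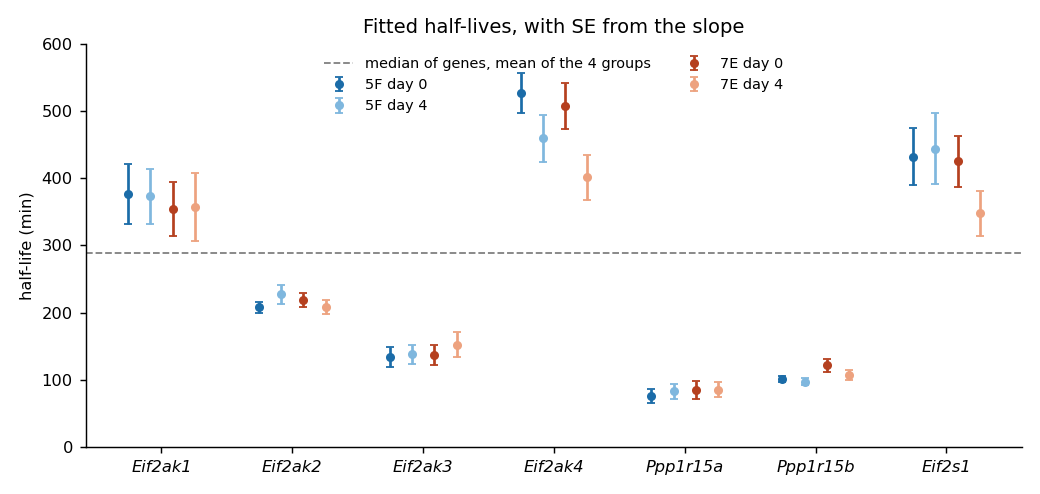
Fitted half-life in min (y axis) of each member (x axis) in the 4 clone and day groups, with SE bars from the slope and a dashed line at 289 min, the mean over the groups of the median gene. Ppp1r15a, Ppp1r15b and Eif2ak3 lie below 160 min in all groups, and Eif2ak4 lies above 400 min.

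Changes of these rates were tested by an interaction term between time and the day or clone, in log2 per hour, where a positive value is a slower loss. From day 0 to day 4 they passed edgeR's test for 0 of 7 members in clone 5F, against 0.194% of 18038 genes, and for 0 of 7 in clone 7E, against 0.873% of 17533 genes. Between the clones at day 0 it was 0 of 7 against 0.0367% of 19088 genes, and for the difference of the changes 0 of 7 against 0% of genes. With so few genes called, the intervals say more. For Ppp1r15a the change was 0.07 (95% interval -0.16 to 0.30) in clone 5F and 0.01 (-0.21 to 0.24) in clone 7E, with low counts after 120 min. For Ppp1r15b it was -0.03 (-0.10 to 0.05) and -0.06 (-0.15 to 0.02). The 4 kinases and Eif2s1 had changes between -0.03 and 0.04 log2 per hour. Between the clones at day 0 Ppp1r15b was slower in clone 7E by 0.10 ± 0.04 log2 per hour (95% interval 0.01 to 0.18), with an unadjusted edgeR quasi-likelihood p of 0.0332 and an adjusted p of 1. Without the mock libraries this difference was 0.12 and passed (edgeR adjusted p = 0.027). At an unadjusted p under 0.05, 0 members passed in the other 3 rate comparisons.

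The early fall was compared in the same way. From day 0 to day 4 its change passed for 0 of 7 members in clone 5F (0.387% of 20141 genes) and for 0 of 7 in clone 7E (1.54%), and between the clones at day 0 for 0 of 7 (0.104%). For Ppp1r15a the fall was smaller at day 4 by 0.25 log2 in clone 5F (95% interval -0.09 to 0.58) and by 0.30 in clone 7E (-0.00 to 0.60), with edgeR adjusted p of 0.936 and 0.435. The rise of the mock level of this gene, 0.41 log2 in each clone, was thus measured beside a loss whose change was not detectable with these libraries. Eif2ak4 fell more at day 4 in clone 7E by 0.18 log2 (95% interval 0.03 to 0.33 in size) at an unadjusted p of 0.0247, which did not pass adjustment (edgeR adjusted p = 0.305). It was the 1 member past an unadjusted p of 0.05 in these 3 comparisons.

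For each member the genes with the most similar course were found by Pearson's r of log2(mean normalized count + 1) over the 16 clone, day and time groups, among the 9874 genes. These groups share clones and time points, and nearly all mRNAs fall in them, so r is high throughout and is given as a description. Ppp1r15a was closest to Cyb5r1 (0.996) and Ppp1r15b to Gpatch1 (0.998) and Trim33 (0.998). Eif2ak3 was closest to Mta2 and Nop2 (0.998 each), Eif2ak1 to Skp2 and Pus7 (0.996 each), Eif2ak2 to Cul1 and Taf1b (0.995 each), and Eif2ak4 to Akap12 (0.996) and Ifitm2 (0.993). Eif2s1 was closest to Eif3m and Cct6a (0.998 each), which encode a translation initiation factor and a chaperonin subunit. Among the members r went from 0.782 between Ppp1r15a and Eif2ak4 to 0.977 between Eif2s1 and Eif2ak4.

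The members' mRNAs were last looked up in the CRAC data, in which RNA crosslinked by UV to a tagged protein is sequenced. The authors' relative binding gives the share of each mRNA's scaled counts in MTR4, the nuclear exosome helicase, SKIV2L, its cytoplasmic counterpart, and XRN1, the exonuclease that degrades mRNA from the 5′ end. Values are pooled over libraries, so they have no replicate error and were not tested. Of the 7 members 4 were among the 7240 mRNAs listed, and Eif2ak2, Eif2ak3 and Eif2ak4 were not. The share in XRN1 was 0.539 for Eif2ak1, 0.531 for Ppp1r15a and 0.583 for Ppp1r15b, against a median of 0.337 over all mRNAs, and it exceeded 87.8%, 86.9% and 92.2% of them. Their share in SKIV2L was 0.190, 0.270 and 0.214, against a median of 0.267. Eif2s1 had the other pattern, with 0.510 in SKIV2L, above 89.3% of mRNAs, and 0.295 in XRN1. In MTR4 all 4 lay below the median of 0.319, at 0.195 to 0.271. The deposited ratio for AVEN was 0.448 for Eif2s1, 0.341 for Ppp1r15b and 0.241 for both Eif2ak1 and Ppp1r15a, against a median of 0.295. The authors' RPKM in the same table is a median over the lines with tagged Xrn1, Skiv2l or Mtr4. It was 114 for Eif2s1, 62.2 for Ppp1r15b, 27.1 for Eif2ak1 and 20.6 for Ppp1r15a. That is the same order as per kb at day 0 in the mock libraries.

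**Figure D5:**
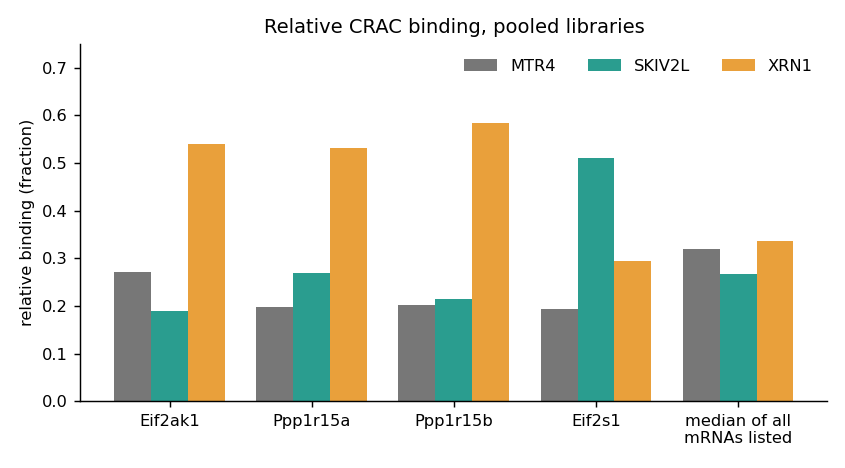
Authors' relative binding (fraction, y axis) in MTR4, SKIV2L and XRN1 for the 4 members listed and the median of all 7240 mRNAs (x axis), with 1 bar per protein and no error bars because libraries were pooled. The XRN1 bar is the tallest for Eif2ak1, Ppp1r15a and Ppp1r15b, at 0.531 to 0.583, and the SKIV2L bar for Eif2s1, at 0.510.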

How the data were processed

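The half-life experiment was analysed as counts per gene. The authors lysed cells in a buffer with ERCC spike-ins, depleted ribosomal RNA and prepared libraries that do not keep the strand (TruSeq v2). They mapped reads to GRCm38 with STAR 2.5.0a, kept uniquely mapped reads and deposited the read counts per gene without normalization. In the CRAC table, the authors' relative binding is a fraction of pooled, scaled counts in MTR4, SKIV2L and XRN1, and the authors' AVEN value is a ratio. The authors deposited RPKM values from RNA-seq, and a score that corrects the fractions for RPKM, used here as an alternative. The same table holds DESeq2 log2 fold changes and adjusted p-values of knockout RNA-seq and of SKIV2L CRAC, which were not used, nor were the deposited half-lives.

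Columns were matched to samples by name, and 0 columns were left unused. Groups were clone, 4OHT day and time. Total counts were 24440935 to 34114250 per library, and replicate libraries differed by a chi-square of 2.43 or more per gene, beyond sampling noise, so none was taken for a copy. Of the gene identifiers, 53274 were given a symbol from Gencode M21. Libraries of one time point were scaled to each other by median-ratio size factors, and time points by a factor from the 34 ERCC sequences that averaged over 50 counts (1, 0.649, 0.531 and 0.438 at 0, 120, 240 and 360 min). Counts were tested in R 4.3.3 with edgeR 4.0.16 (filterByExpr, glmQLFit and glmQLFTest) and Benjamini-Hochberg adjustment over all genes of a comparison at 0.05. Mock levels were fitted per clone, or over both clones for comparisons between them. Intervals are 95% Wald intervals from the SE. Half-lives used a pseudocount of 1. The scripts were tested on simulated data.

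The members, the pathway lists, the markers and the 2 most similar genes per member were chosen with earlier results of these data known. All members were tested in every comparison, but several comparisons give values for only some of them. Pathway genes are named mainly where they passed. Alternatives were TMM or own spike-ins in scaling, DESeq2 1.42.0 or limma 3.58.1 as the test, all genes kept, the replicate block, libraries left out (each replicate number, mock or 360 min), and a pseudocount of 0.5. Leaving out the 6 libraries low in mt-Rnr2 was chosen after seeing the data. Replicate 2 of clone 5F at day 0 and 120 min has no sample in the series.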

Additional observations from a re-analysis of the deposited data

Results flagged for a closer look

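No member met a rule for a closer look, and groups of 3 libraries are too small to test for a library that stands apart within its group. The genes around the members did, because their changes differed between the clones by edgeR's interaction test at an adjusted p under 0.05. For the ISR outputs, the change of the mock level over 4OHT was larger in clone 7E than in clone 5F by 1.69 log2 for Atf3, 1.07 for Chac1, 0.87 for Ddit4, 0.86 for Trib3, 0.78 for Ddit3, 0.75 for Cebpb, 0.53 for Atf4, 0.47 for Atf5, 0.28 for Asns and 0.27 for Sesn2. These values are relative to the median of all genes. The clones also differed before 4OHT in 7 of these 10 genes, beside 36.2% of all genes. The ratio of mRNA to spike-in counts was 312 to 322 and then 151 to 156 in clone 7E, while it was 334 to 363 and then 324 to 352 in clone 5F. The part of these in the differences was not tested. For Eif2s3y the difference was 1.14 log2, on raw counts of 10, 6 and 7 at day 0 and 13, 20 and 19 at day 4 in clone 7E against 2869 to 3440 in clone 5F.

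Within clone 7E, the decay of 3 genes of the lists changed between the days. The slope moved by -0.12 log2 per hour, a faster loss, for Asns, which makes asparagine, by -0.10 for Eif2s2, the beta subunit of eIF2, and by 0.15, a slower loss, for Map3k20. The early fall from 0 to 120 min was larger at day 4 by 0.36 log2 for Asns (a difference of -0.36) and by 0.97 for Ddit4 (-0.97), and smaller by 0.37 for Atf4.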

How the results depend on the processing

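Of 1078 values of members recomputed under an alternative, 1038 kept their side of the threshold, 22 lost a call and 11 gained one. The other 7 turned direction with a call in at least 1 of the settings compared. Values that changed sign without a call in either setting are counted among the 1038. DESeq2, TMM and limma changed no call on a member. All 7 turns came with own spike-ins per library, which also move the median of all genes of clone 7E by -1.11 log2: the mock change in clone 7E became -0.69 log2 for Ppp1r15a and -0.82 for Ppp1r15b, and the difference of the changes between clones became -0.995 for both Eif2ak2 and Eif2ak3, -1.03 for Ppp1r15a, -0.88 for Ppp1r15b and -0.98 for Eif2s1. Of 168 recomputed half-lives 16 moved by more than their SE. With the authors' score corrected for RPKM, Eif2s1 had 0.469 in SKIV2L in place of 0.510, and Ppp1r15a had 0.151 in MTR4 in place of 0.199. In XRN1, Eif2ak1, Ppp1r15a and Ppp1r15b had 0.545, 0.531 and 0.602 in place of 0.539, 0.531 and 0.583.

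Counts of genes called moved more. Own spike-ins gave 15290 genes in place of 6551 for the mock change in clone 7E, 14401 in place of 2052 for its difference between clones, 19 in place of 35 and 4 in place of 7 for the decay rate in clone 5F and between clones at day 0, and 1 in place of 0 for the difference of the decay changes (446 genes at an unadjusted p under 0.05, against 497 with the reported scaling). DESeq2 gave 268 in place of 153 for the decay rate in clone 7E, 29 between clones, 4 for the difference, and 505 in place of 310 and 37 in place of 21 for the early fall in clone 7E and between clones. Limma gave 4 for the decay rate between clones. Without a filter the early fall gave 129 in place of 78 in clone 5F and 47 between clones. Without the mock libraries the decay rate gave 14 in clone 5F, 237 in clone 7E, 62 between clones and 5 for the difference, and without those of 360 min 84 in clone 7E and 2 between clones. Without the 6 libraries low in mt-Rnr2 it gave 30 between clones and 4 for the difference, and the early fall 32 between clones. With 1 replicate number left out, fewer samples remained, and the counts were 1859 to 4425 (main count 4002), 4320 to 5949, 4090 to 5322 and 752 to 1445 for the mock change in clone 5F, in clone 7E, between clones and for the difference, 2 to 4, 26 to 50 and 0 to 0 for the decay rate in clone 5F, in clone 7E and between clones, and 47 to 61, 90 to 112 and 9 to 17 for the early fall. Causes beyond the smaller samples were not tested.

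No pairing of the libraries by replicate number was seen. Deviations of those with the same number correlated by -0.025 on average (lowest -0.844, highest 0.890) against 0.017 for other numbers. Of 47 libraries, 8 correlated best with their own number. The first component, with the 6 libraries low in mt-Rnr2 outermost, held 60.7% of the variance of these deviations. Those 6 have mixed replicate numbers, so this comparison cannot exclude a pairing. With the replicate block, 2956 and 6061 genes were called for the mock change in clones 5F and 7E, and 3 calls on members were lost in clone 5F, those of Eif2ak2, Ppp1r15b and Eif2s1 (edgeR adjusted p = 0.0681, 0.164 and 0.0601).

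Ppp1r15a was the least precise member: at 360 min it had 27.7 to 60.7 normalized counts in clone 5F, its course was not a straight line, and the SE of its change in decay rate there was 0.12 log2 per hour, against 0.02 for Eif2s1. The parts of depth and of the curved course in this SE were not tested. With 1 clone per genotype and technical replicates, none of these errors holds the spread between clones or cultures.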

Other observations

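The mRNAs of the ISR outputs differed widely in how fast they were lost. Between 0 and 120 min of actinomycin D, Chac1 changed by -3.54 to -3.96 log2 over the 4 clone and day groups, beside -3.03 to -3.42 for Ppp1r15a. Atf3 was at -1.95 to -2.16, Ddit3, the gene of CHOP, at -1.94 to -2.43, Atf4 at -1.39 to -1.87 and Trib3 at -1.30 to -2.10 log2. Asns, an amino acid synthetase gene, was the slowest of the 10, at -0.00 to -0.38 log2. Median gene falls in these groups were -0.83 to -0.85 log2. Of the regulators of the kinases, Map3k20 had the largest values, -1.20 to -1.30 log2, and Prkra, which activates PKR, the smallest, -0.22 to -0.35 log2.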
